A study of Mus musculus with 2 samples.

Results

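The genes described here are the mouse heterotrimeric G protein subunits and the regulators of G protein signalling (RGS) that had a row in the single-cell count tables of 2 pancreatic islet libraries. Members were chosen by symbol alone, as the named alpha subunits (Gna genes), Gnb1 to Gnb5, every symbol that starts with Gng and a digit or t, and every symbol that starts with Rgs and a digit. This rule found 57 genes in either library and 55 with a row in both, of 33038 genes in either library and 27729 in both. Of the 55, 41 passed the filter on low counts and were tested among 14955 genes, and 14 were too low to test. Both libraries came from islets of male C57BL/6J mice aged 8 weeks and were labelled control, with no treatment named. The islets had been freed with collagenase, picked by hand and dissociated with trypsin and EDTA, and 10000 cells were loaded per library. RNA was captured by RevGel-seq, in which each cell is linked to a barcoded bead and the pairs are held apart in a hydrogel that can be dissolved again. The libraries are technical replicates of a single islet preparation, so the spread between them holds no variation between mice.

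Cells were grouped by which hormones reached 1% of their unique molecular identifiers (UMIs), with Ins1 and Ins2 added together as insulin. The tables held 735 and 748 cells and shared 0 barcodes. In libraries 1 and 2 respectively, 182 and 190 cells were insulin only, 182 and 174 Gcg only, 35 and 23 Sst only, 54 and 68 Ppy only, 77 and 71 Sst and Ppy, 65 and 86 Gcg and Ppy, and 91 and 92 hormone-free. Members took no part in this grouping. Levels below are CPM, the UMIs of a gene summed over the cells of a group in a library and scaled to a total of 1000000 UMIs of all genes other than the 5 hormone genes. The sums held 298300 to 2823605 such UMIs, and a single UMI in the Sst only sum of library 2 already stood for 3.35 CPM. Levels are compared between groups within a gene and not between genes. A lower level in a group cannot be separated into fewer cells that express the gene and less RNA in each cell.

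Each single-hormone group carried markers of the matching cell type other than the hormones themselves, but some lists were also high in other groups. The remaining genes of a list of 10 beta cell markers summed to 55617 and 57159 CPM in insulin only cells, and an alpha cell list of 7 reached 47014 and 48585 CPM in Gcg only cells. A delta cell list of 5 reached 6751 and 6661 CPM in Sst only cells, and Pyy reached 53889 and 41295 CPM in Ppy only cells. In Sst only cells the beta list stood above the delta list, at 15299 and 15541 CPM, and Pyy at 12679 and 13017 CPM. Pyy was also at 15245 and 17744 CPM in Sst and Ppy cells and at 28943 and 24341 CPM in Gcg and Ppy cells. An endothelial list of 8 genes summed to 7072 and 8949 CPM in hormone-free cells. It also stood at 624 CPM in the Sst only sum of library 1 against 53.6 CPM in library 2.

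As background, a heterotrimeric G protein carries the signal of a membrane receptor into the cell. The alpha subunit binds GTP when the receptor is active and parts from the beta and gamma pair, and both parts act on effectors. Gs raises cyclic AMP, Gi and Go lower it and open or close ion channels through beta and gamma, Gq activates phospholipase C, and G12 and G13 act on the actin cytoskeleton. RGS proteins end the signal by speeding GTP hydrolysis on the alpha subunit. In islets these pathways pass the signals of incretins, glucagon, somatostatin, adrenaline and acetylcholine to hormone secretion.

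Between the single-hormone groups the share of members called was above that of all genes in each direction of the 6 pairs, except for genes higher in Gcg only than in Sst only cells. With 41 members, 1 member stands for 2.44%, and some of these shares were near that of all genes. Examples are genes higher in insulin only than in Ppy only cells (12.2% beside 10.3%) and in Gcg only than in Ppy only cells (7.32% beside 4.72%). Insulin only cells differed from Gcg only cells in 16 of 41 members, 8 higher and 8 lower, or 19.5% each way, beside 12.8% and 12.2% of all genes tested. Against Sst only cells, 5 members were higher in insulin only cells (12.2% beside 7.48% of all genes) and 11 were lower (26.8% beside 6.97%). Against Ppy only cells, 5 were higher (12.2% beside 10.3%) and 7 lower (17.1% beside 9.87%). Calls are from the quasi-likelihood test of edgeR with adjusted p under 0.05, and the comparisons share groups. The equal-cell setting named below repeats the fit with 23 cells drawn for each sum, the number in the smallest, and so rests on fewer UMIs.

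Among the groups without insulin, 1 member was higher in Gcg only than in Sst only cells (2.44% beside 6% of all genes) and 6 were lower (14.6% beside 6.31%). Gcg only exceeded Ppy only cells in 3 members (7.32% beside 4.72%) and fell below them in 4 (9.76% beside 4.77%). Sst only cells exceeded Ppy only cells in 7 members (17.1% beside 4.67%) and fell below them in 4 (9.76% beside 4.41%). The median absolute log2 difference over the members was 1.66 between insulin only and Sst only cells, against 0.53 over all genes, and 1.13 between Sst only and Ppy only cells, against 0.47. Over the 6 pairs, Gng12 was called in 6, Gnb4, Gng4, Gnas and Gnai1 in 5, Gnai2, Gnat2 and Rgs2 in 4, and 17 members in none. The 17 include genes near 0 in these groups, such as Gna15 and Rgs14, that passed the filter through the hormone-free sums.

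**Figure D1:**
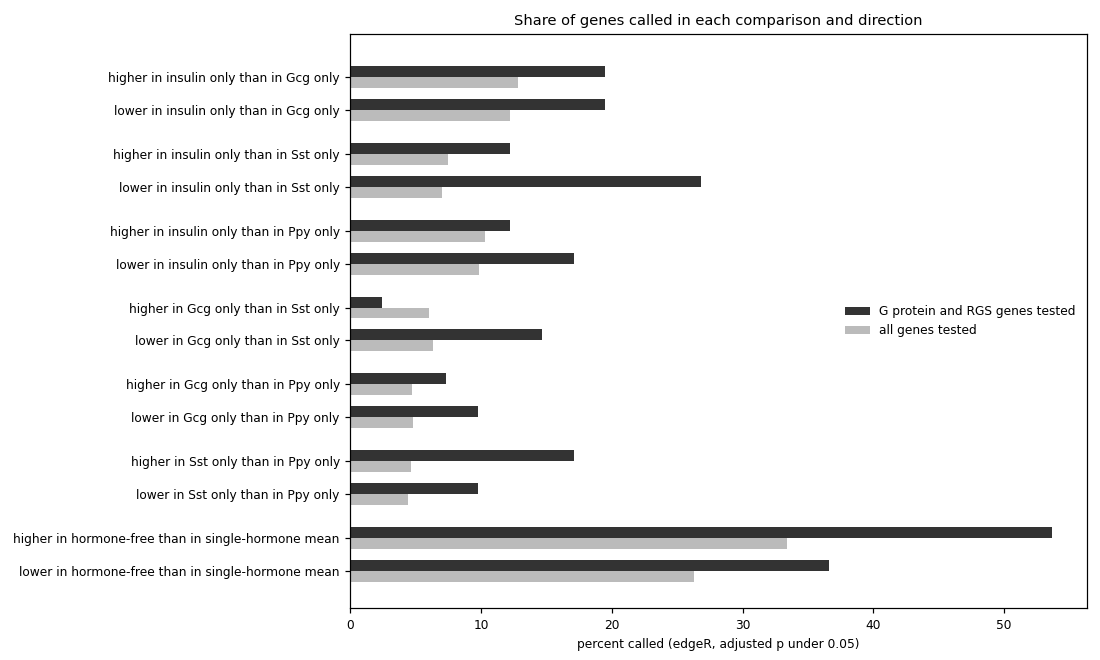
Percent of the 41 tested members and of all 14955 genes tested that were called higher or lower in the first group of each comparison (horizontal axis, percent of genes with edgeR adjusted p under 0.05). Members exceed all genes most in the lower direction of insulin only against Sst only, at 26.8% beside 6.97%.

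Gnas, which encodes the Gs alpha subunit that activates adenylyl cyclase, was far lower in insulin only cells than in the 3 other single-hormone groups. The row (ENSMUSG00000027523, GRCm38 chr2:174284320-174346744, plus strand) stood at 62.0 and 77.5 CPM in insulin only cells of libraries 1 and 2. It reached 872 and 909 CPM in Gcg only, 1086 and 986 CPM in Sst only, and 292 and 274 CPM in Ppy only cells. The sums of the 4 groups did not overlap.

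Gnas was lower in insulin only than in Gcg only cells by a log2 difference of -3.64 ± 0.14 (SE), a 12.5-fold difference with edgeR adjusted p = 1.42e-10. The difference from Sst only cells was 13.3-fold (log2 -3.73, adjusted p = 1.84e-10 by edgeR), and that from Ppy only cells 3.90-fold (log2 -1.97 ± 0.13, edgeR adjusted p = 6.6e-08). Ppy only cells lay between, 3.19-fold below Gcg only cells (edgeR adjusted p = 8.94e-07) and 3.41-fold below Sst only cells (adjusted p = 5.17e-07). Gcg only and Sst only cells differed by a log2 value of -0.10, which did not pass the test (edgeR adjusted p = 0.70). These 5 calls held in every other setting and with each sum left out.

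The Gnas row sums all transcripts of a locus with several promoters and with genes on the opposite strand. Of its exonic bases 22.0% were shared with such genes, and of the last 500 exonic bases 93.6%. The counting strand is not given in the sources used here, and which transcripts contributed was not tested. The opposite-strand gene Gm20721, which covers the shared end, had 35 UMIs in all. Gnasas1, another antisense gene of the locus, had 92 UMIs and stood at 24.2 and 36.9 CPM in Sst only cells, with 14 and 35 UMIs in Sst and Ppy cells, and at most 1.17 CPM in the other 5 groups. Gnal, the second Gs-type gene, stayed between 0.369 and 6.70 CPM in the single-hormone groups and was called in none of the 6 pairs.

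Among the inhibitory subunits, Gnai1 (ENSMUSG00000057614, chr5:18265135-18360355, minus strand) was the highest in Gcg only cells among the single-hormone groups. It stood at 147 and 161 CPM there, at 73.1 and 82.1 CPM in Ppy only, 59.4 and 50.1 CPM in insulin only, and 19.8 and 16.8 CPM in Sst only cells. The sums of the 4 groups did not overlap. Gcg only exceeded Sst only cells 9.02-fold (log2 3.17 ± 0.34, edgeR adjusted p = 1.45e-05), Gnai1 being the member higher in Gcg only cells in that comparison.

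Gnai1 was also 2.74-fold higher in Gcg only than in insulin only cells (edgeR adjusted p = 6.51e-05) and 4.50-fold higher in Ppy only than in Sst only cells (adjusted p = 0.00159). Its 3.29-fold excess of insulin only over Sst only cells (edgeR adjusted p = 0.00646) was lost without either Sst only sum, at adjusted p = 0.0778 without library 1 and 0.0525 without library 2. Its 2.01-fold excess of Gcg only over Ppy only cells (edgeR adjusted p = 0.00556) rose to 0.0668 without the Gcg only sum of library 2, and to 0.065 and 0.0548 without the Ppy only sum of library 1 and library 2. In the equal-cell setting these adjusted p were 0.146 and 0.074 by edgeR. Without the top cell of Gnai1 in each sum the log2 difference went from 1.72 to 2.39 for insulin only against Sst only, from 3.17 to 3.83 for Gcg only against Sst only and from -2.17 to -2.85 for Sst only against Ppy only cells. The difference between insulin only and Ppy only cells was not called.

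Gnai2 (ENSMUSG00000032562, chr9:107614125-107635367, minus strand), the widely expressed Gi subunit, differed far less in proportion. It stood at 784 and 704 CPM in Sst only, 578 and 643 CPM in insulin only, 485 and 449 CPM in Ppy only and 451 and 466 CPM in Gcg only cells. Its 4 called differences ran from 1.36-fold to 1.49-fold, with edgeR adjusted p from 0.0125 to 0.0317. Each was lost on leaving out any of 3 of the 4 sums it compared. In the equal-cell setting insulin only cells were not called above Gcg only or Ppy only cells (edgeR adjusted p = 0.166 and 0.527). Sst only cells were then not called above Ppy only cells (edgeR adjusted p = 0.101).

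Gnat2 (ENSMUSG00000009108, chr3:108092789-108101432, plus strand), known as the transducin subunit of cone photoreceptors, was highest in insulin only cells at 42.4 and 34.1 CPM. It followed at 23.2 and 31.7 CPM in Ppy only, 8.38 and 8.50 CPM in Gcg only, and 8.79 and 3.35 CPM in Sst only cells, where the last value is a single UMI. The insulin only sums lay above all others. Insulin only cells exceeded Gcg only cells 4.62-fold (log2 2.21 ± 0.29, edgeR adjusted p = 4.26e-05) and Sst only cells 6.42-fold (log2 2.68 ± 0.48, edgeR adjusted p = 0.00128), a log2 difference that stood at 3.64 without the Sst only sum of library 1. Neither was called in the equal-cell setting (edgeR adjusted p = 0.166 and 0.0851).

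Ppy only cells exceeded Gcg only cells in Gnat2 3.22-fold (edgeR adjusted p = 0.00268, and 0.0696 without the Ppy only sum of library 2). They exceeded Sst only cells 4.48-fold (edgeR adjusted p = 0.0138), a call that DESeq2 did not make (adjusted p = 0.0807) and that was lost without either Sst only sum (edgeR adjusted p = 0.0527 and 0.0913) or the Ppy only sum of library 2 (adjusted p = 0.0843). The log2 difference of Sst only from Ppy only cells went from -2.16 to -3.12 without the Sst only sum of library 1, and it was -1.40 within library 1 and -3.24 within library 2. Neither Ppy only excess was called in the equal-cell setting (edgeR adjusted p = 0.512 and 0.211). Gnat3 and Gnat1, the taste and rod forms, had 26 and 3 UMIs in all and were not tested.

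Gnao1, which encodes the Go alpha subunit, stood at 678 and 719 CPM in Gcg only, 545 and 563 CPM in Sst only, 335 and 366 CPM in insulin only, and 299 and 301 CPM in Ppy only cells. The sums of the 4 groups did not overlap, yet none of its 6 differences passed the test in the fit over all 14 sums, the nearest being the 1.94-fold and 2.36-fold differences of Gcg only from insulin only and Ppy only cells (edgeR adjusted p = 0.0798 and 0.0586). The hormone-free sums of that fit stood at 26.4 CPM in library 1 and 149 CPM in library 2, and 3 cells held 79.9% of the hormone-free UMIs of both libraries together. When the hormone-free sums were left out of the fit, a setting chosen after seeing the data, all 6 differences were called, with edgeR adjusted p = 1.07e-09 for insulin only against Gcg only and 1.09e-10 for Gcg only against Ppy only cells. Gnaz, the Gz subunit, lay between 144 and 209 CPM in the single-hormone groups, and Gnai3 between 30.2 and 74.8 CPM, and neither was called in any of the 6 pairs. With the hormone-free sums left out, Gnaz was called higher in insulin only than in Gcg only, Sst only and Ppy only cells (edgeR adjusted p = 0.0044, 0.011 and 0.0146) and Gnai3 higher in insulin only than in Sst only cells (adjusted p = 0.047).

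The Gq subunits differed little between hormone groups. Gnaq stood at 200.4 and 212 CPM in insulin only cells, below the 272 and 282 CPM of Gcg only and the 299.9 and 290.2 CPM of Ppy only cells (1.31-fold and 1.38-fold, edgeR adjusted p = 0.0425 and 0.0235). Gna11, a close relative with the same effector, went the other way, at 138 and 159 CPM in insulin only cells against 101 and 109 CPM in Gcg only and 109.9 and 87.2 CPM in Sst only cells (1.45-fold and 1.66-fold, edgeR adjusted p = 0.0172 and 0.0206). Summed over its 4 genes, the Gq family held 338 and 373 CPM in insulin only and 373 and 392 CPM in Gcg only cells. The other Gq genes, Gna14 and Gna15, reached at most 2.20 CPM in any single-hormone sum.

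Gna12 (ENSMUSG00000000149, chr5:140758408-140830431, minus strand), a subunit that acts on the actin cytoskeleton, stood at 40.4 and 46.9 CPM in Ppy only cells. It was at 20.3 and 14.3 CPM in insulin only, 26.3 and 15.6 CPM in Gcg only and 13.2 and 10.1 CPM in Sst only cells, so the Ppy only sums lay above the other 6. Ppy only cells exceeded Sst only cells 3.94-fold (edgeR adjusted p = 0.0317) and insulin only cells 2.42-fold (edgeR adjusted p = 0.0134). The first call was lost without any of its 4 sums (adjusted p from 0.0644 to 0.173), and the second without the insulin only sum (adjusted p = 0.112) or the Ppy only sum (adjusted p = 0.118) of library 2. Both were lost in the equal-cell setting (edgeR adjusted p = 0.151 and 0.166). Gna13, its partner in the family, was 1.67-fold higher in Ppy only and 1.46-fold higher in insulin only than in Gcg only cells (edgeR adjusted p = 0.0207 and 0.0375).

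**Figure D2:**
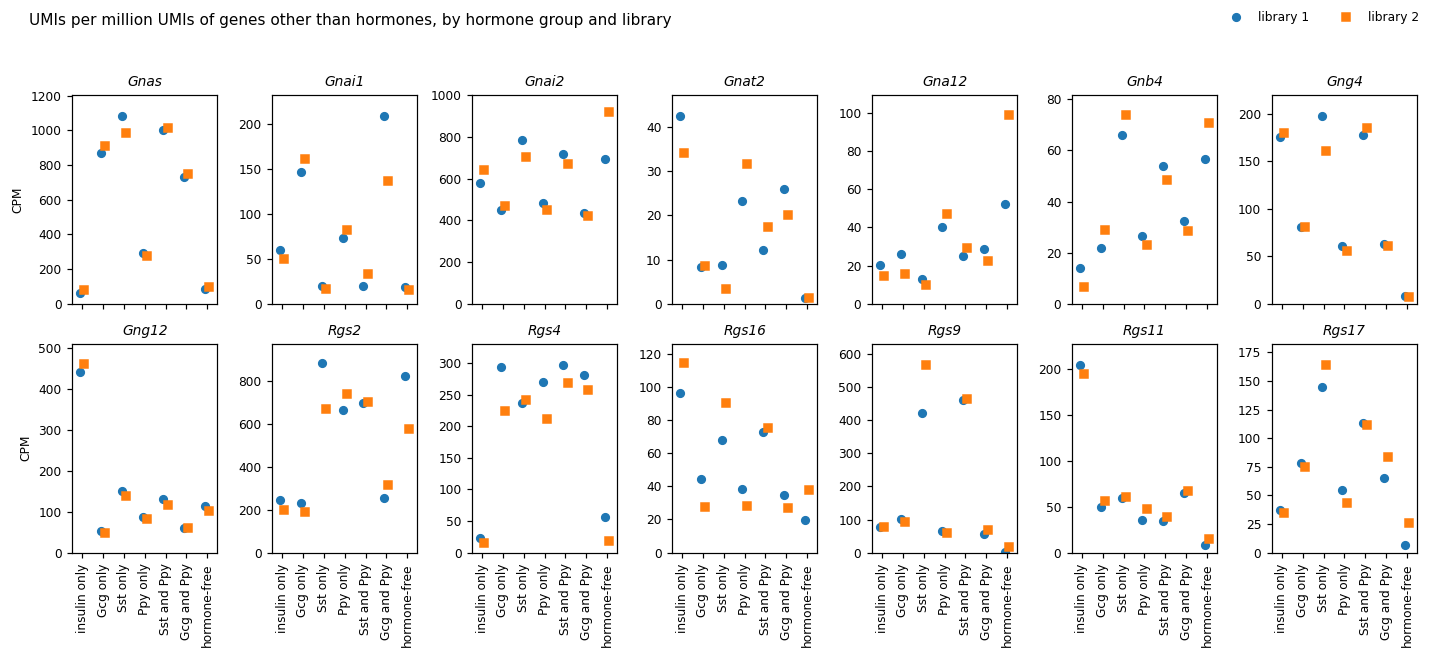
Level of the 14 members described in full (vertical axis of each panel, CPM without hormone genes, starting at 0) in the 7 cell groups, with 1 point per library. Gnas lies at 62.0 and 77.5 CPM in insulin only cells and at 872 or more in Gcg only and Sst only cells, while Gng12 and Rgs11 are highest in insulin only cells.

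Of the beta subunits, which pair with gamma and bind ion channels and phospholipases, Gnb1 and Gnb2 differed by less than 1.5-fold between any of the 4 single-hormone groups where they were called. Gnb1 was 1.41-fold higher in Ppy only than in insulin only cells (edgeR adjusted p = 0.0101), and Gnb2 was 1.39-fold higher in Sst only than in insulin only cells (edgeR adjusted p = 0.0192). Gnb4 (ENSMUSG00000027669, chr3:32580332-32616585, minus strand) varied most. It stood at 65.9 and 73.8 CPM in Sst only, 21.7 and 29.0 CPM in Gcg only, 26.6 and 22.9 CPM in Ppy only and 14.0 and 6.74 CPM in insulin only cells.

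The Sst only sums of Gnb4 lay above all other single-hormone sums and the insulin only sums below them. Sst only exceeded insulin only cells 5.87-fold (log2 -2.55 ± 0.34 for insulin only against Sst only, edgeR adjusted p = 9.63e-05), a call kept with each sum left out. That log2 difference went to -3.17 without the insulin only sum of library 1, to -3.15 in the equal-cell setting and to -3.45 within library 2. Sst only cells exceeded Gcg only and Ppy only cells 2.50-fold and 2.62-fold (edgeR adjusted p = 0.00933 and 0.0136), calls lost without either Sst only sum, the Gcg only sum of library 1 or the Ppy only sum of library 2 (adjusted p from 0.064 to 0.111). Insulin only cells fell below Gcg only and Ppy only cells 2.35-fold and 2.24-fold (edgeR adjusted p = 0.00565 and 0.0165), and without the insulin only sum of library 2 these adjusted p were 0.083 and 0.149. The first was also lost without the Gcg only sum of library 2 (edgeR adjusted p = 0.0765) and the second without either Ppy only sum (adjusted p = 0.0972 and 0.0617). Within library 1 the log2 difference of insulin only from Gcg only cells was -0.63 and within library 2 it was -2.11. These 4 smaller differences were not called in the equal-cell setting (edgeR adjusted p from 0.0648 to 0.269).

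Gnb5, the beta subunit that binds RGS proteins of the R7 family in place of gamma, stood at 52.7 and 53.6 CPM in Sst only and 23.6 and 20.6 CPM in insulin only cells. The difference was 2.14-fold (edgeR adjusted p = 0.0316), and the 1.95-fold difference from Gcg only cells did not pass (edgeR adjusted p = 0.0617). With the hormone-free sums left out, the latter was called (edgeR adjusted p = 0.0139). Gnb3, known from cones and taste cells, had 18 UMIs in all and was not tested.

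The gamma subunits anchor the beta and gamma pair in the membrane. Gng12 (ENSMUSG00000036402, chr6:66896397-67021350, plus strand) was called in all 6 pairs. It stood at 441 and 460.3 CPM in insulin only, 152 and 137 CPM in Sst only, 87.7 and 82.7 CPM in Ppy only and 52.9 and 47.5 CPM in Gcg only cells, and no sums of different groups overlapped.

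Insulin only cells exceeded Gcg only cells in Gng12 9.20-fold (log2 3.20 ± 0.13, edgeR adjusted p = 2.4e-10), Ppy only cells 5.51-fold (edgeR adjusted p = 5.28e-09) and Sst only cells 3.46-fold (log2 1.79 ± 0.14, edgeR adjusted p = 5.56e-07). Those 3 calls, and the 2.66-fold excess of Sst only over Gcg only cells (edgeR adjusted p = 1.97e-05), held in every other setting and with each sum left out. The smaller excess of Ppy only over Gcg only cells (1.67-fold, edgeR adjusted p = 0.00306) was lost without the Gcg only sum of library 2 (adjusted p = 0.0599). The 1.59-fold excess of Sst only over Ppy only cells (edgeR adjusted p = 0.0137) was lost without the Sst only sum of library 1 (adjusted p = 0.165) and without the Ppy only sum of library 2 (adjusted p = 0.0974). In the equal-cell setting these 2 smaller differences were not called (edgeR adjusted p = 0.21 and 0.461).

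Gng4 (ENSMUSG00000021303, chr13:13784059-13827896, plus strand) split the groups into a higher and a lower pair. It stood at 176 and 179 CPM in insulin only and 198 and 161 CPM in Sst only cells, which overlapped, against 80.7 and 80.7 CPM in Gcg only and 61.0 and 55.7 CPM in Ppy only cells. Insulin only cells exceeded Gcg only cells 2.25-fold (edgeR adjusted p = 6.16e-06) and Ppy only cells 3.17-fold (edgeR adjusted p = 6.04e-07). Sst only cells exceeded them 2.06-fold and 2.90-fold (edgeR adjusted p = 0.000198 and 1.51e-05). The 1.41-fold difference between Gcg only and Ppy only cells (edgeR adjusted p = 0.0421) was lost without any of its 4 sums, with DESeq2 (adjusted p = 0.177) and with the library number as a block (adjusted p = 0.0564). In the equal-cell setting the difference of Gcg only from Sst only cells was at edgeR adjusted p = 0.0514.

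Gng2 went with Sst only and Gcg only cells, at 37.4 and 50.3 CPM and 28.9 and 32.6 CPM, against 9.97 and 17.3 CPM in insulin only cells (2.83-fold and 2.22-fold, edgeR adjusted p = 0.0484 and 0.0333). All of its last 500 exonic bases are shared with Gm48283 on the opposite strand. Summed over all gamma genes, insulin only cells held 654 and 681 CPM, Sst only cells 450.5 and 396 CPM, Gcg only cells 190.4 and 191 CPM and Ppy only cells 195 and 188 CPM, an order that Gng12 and Gng4 set. Gng11 stood at 26.4 CPM in the Sst only sum of library 1 and at 0 in that of library 2, where 0 allows up to 3 UMIs, beside the difference in endothelial markers given above.

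**Figure D3:**
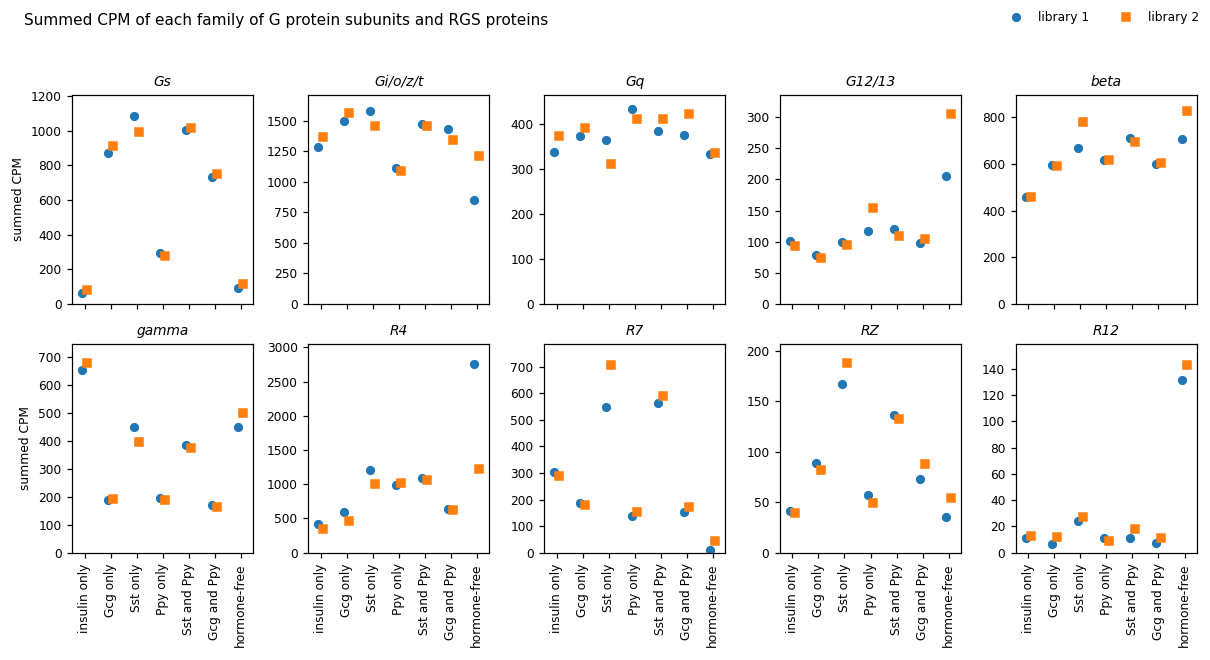
Summed level of each subunit and RGS family (vertical axis of each panel, CPM without hormone genes, starting at 0) in the 7 cell groups, with 1 point per library. The gamma family is highest in insulin only cells (654 and 681 CPM), and the R7 family of RGS genes in the groups with Sst (549 and 707 CPM in Sst only cells).

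The RGS proteins of the R4 family are small and act on Gi and Gq, and Rgs2 is known for its preference for Gq. Rgs2 (ENSMUSG00000026360, chr1:143999338-144004161, minus strand) stood at 883 and 667 CPM in Sst only and 667 and 738 CPM in Ppy only cells. It was at 244 and 199 CPM in insulin only and 232 and 190.2 CPM in Gcg only cells, so that the groups formed a high and a low pair with no overlap between the pairs. Sst only cells exceeded insulin only cells 3.15-fold and Gcg only cells 3.39-fold (edgeR adjusted p = 1.62e-05 and 1.03e-05). Ppy only cells exceeded them 3.05-fold and 3.28-fold (edgeR adjusted p = 1.01e-05 and 1.91e-05). In the equal-cell setting the differences of insulin only from Sst only and Ppy only cells were not called (edgeR adjusted p = 0.0816 and 0.19), while the log2 differences of Gcg only from Sst only and Ppy only cells went from -1.76 to -2.97 and from -1.72 to -2.60.

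Rgs4 (ENSMUSG00000038530, chr1:169741477-169747642, minus strand), which acts on Gi and Gq, set insulin only cells apart from the 3 other groups. It stood at 23.6 and 15.6 CPM in insulin only, 294 and 223 CPM in Gcg only, 237 and 241 CPM in Sst only and 269.9 and 211 CPM in Ppy only cells. The last 3 groups overlapped. Insulin only cells were 12.8-fold lower than Gcg only (log2 -3.67 ± 0.32, edgeR adjusted p = 6.4e-07), 10.8-fold lower than Sst only (log2 -3.44 ± 0.36, edgeR adjusted p = 8.6e-06) and 11.7-fold lower than Ppy only cells (log2 -3.54 ± 0.33, edgeR adjusted p = 1.56e-06). These calls held in every other setting and with each sum left out, but in the equal-cell setting the 3 log2 differences were smaller, at -2.42, -2.82 and -2.93.

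Rgs16 (ENSMUSG00000026475, chr1:153740349-153745468, plus strand), another R4 member, was higher in insulin only cells, at 96.3 and 114 CPM, than in Gcg only cells at 44.2 and 27.3 CPM and Ppy only cells at 38.7 and 28.1 CPM. Both differences were called (3.02-fold and 3.32-fold, edgeR adjusted p = 0.000343 and 0.000488). The second was lost in the equal-cell setting, where its log2 value went from 1.73 to 1.12 (edgeR adjusted p = 0.119). Sst only cells, at 68.1 and 90.5 CPM, lay between and differed from no other group by this test. With the hormone-free sums left out, they were called above Gcg only and Ppy only cells (edgeR adjusted p = 0.0104 and 0.00858). Rgs16 thus moved opposite to Rgs4 between insulin only and Gcg only cells.

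Over the R4 family, insulin only cells summed to 415 and 347 CPM, Gcg only to 588 and 459 CPM, Sst only to 1204 and 1009 CPM and Ppy only to 990.0 and 1011 CPM. Of the genes of this family, Rgs3 lies on chromosome 4 and the others on chromosome 1, where several are neighbours. Rgs8 and Rgs16 are 40026 bases apart, Rgs5 and Rgs4 45664, Rgs13 and Rgs1 64924, and Rgs2 and Rgs13 134493, with 0 protein-coding genes between the members of each pair. Of these neighbours, Rgs5, Rgs13 and Rgs1 stayed at or below 58.2, 6.26 and 6.45 CPM respectively in every hormone group that entered the fit.

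The R7 family binds Gnb5 and membrane anchors and acts on Gi and Go, and Rgs9 is known from photoreceptors and striatal neurons. Rgs9 (ENSMUSG00000020599, chr11:109225355-109298129, minus strand) stood at 422 and 567 CPM in Sst only cells. It was at 78.2 and 77.1 CPM in insulin only, 100.2 and 91.4 CPM in Gcg only and 65.3 and 58.0 CPM in Ppy only cells, far below both Sst only sums. Sst only cells exceeded Ppy only cells 7.42-fold (log2 2.89 ± 0.31, edgeR adjusted p = 2.19e-05), insulin only cells 5.65-fold (log2 -2.50 ± 0.30 for insulin only against Sst only, edgeR adjusted p = 3.22e-05) and Gcg only cells 4.69-fold (log2 -2.23 ± 0.29 for Gcg only against Sst only, edgeR adjusted p = 8.68e-05).

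Rgs11 (ENSMUSG00000024186, chr17:26202951-26211324, plus strand), known from retinal bipolar cells, was highest in insulin only cells, unlike Rgs9 of the same family. It stood at 205 and 195 CPM in insulin only cells against 49.5 and 56.3 CPM in Gcg only, 59.3 and 60.3 CPM in Sst only and 36.1 and 48.1 CPM in Ppy only cells. Insulin only cells exceeded these groups 3.87-fold, 3.73-fold and 4.86-fold (edgeR adjusted p = 6.21e-07, 2.69e-05 and 4.21e-07). These 3 calls held in every other setting and with each sum left out.

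Rgs7 stood at 68.1 and 80.5 CPM in Sst only cells and at 19.6 and 16.8 CPM in insulin only cells. The difference was 3.60-fold (edgeR adjusted p = 0.0147), and no other pair was called in the fit over all 14 sums. With the hormone-free sums left out, insulin only cells were also called below Ppy only and Gcg only cells (edgeR adjusted p = 0.000363 and 0.00701). Gcg only cells were then called below Sst only cells (edgeR adjusted p = 0.00372). Rgs7bp, a membrane anchor of the family, ran the other way, at 39.6 and 30.2 CPM in Sst only cells against 95.4 and 119.6 CPM in Ppy only cells (3.25-fold, edgeR adjusted p = 0.0296). Summed over Rgs6, Rgs7, Rgs9 and Rgs11, the family held 549 and 707 CPM in Sst only cells, 303 and 289 CPM in insulin only, 188 and 178 CPM in Gcg only and 137 and 154 CPM in Ppy only cells. Rgs9 made up most of the first of these and Rgs11 most of the second.

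Of the RZ family, which includes RGS proteins for Gz, Rgs17 (ENSMUSG00000019775, chr10:5825663-5922400, minus strand) was highest in Sst only cells. It stood at 145 and 164 CPM there, 78.5 and 75.1 CPM in Gcg only, 55.0 and 43.4 CPM in Ppy only and 36.9 and 35.0 CPM in insulin only cells, with no overlap between groups. Sst only cells exceeded insulin only cells 3.82-fold (edgeR adjusted p = 0.000853) and Ppy only cells 2.93-fold (edgeR adjusted p = 0.00775). The 1.84-fold difference from Gcg only cells did not pass (edgeR adjusted p = 0.0817), but it was called with the hormone-free sums left out (adjusted p = 0.000649). The difference from Ppy only cells was lost without either Sst only sum (edgeR adjusted p = 0.0548 and 0.057) or the Ppy only sum of library 2 (adjusted p = 0.099). The 2.08-fold excess of Gcg only over insulin only cells (edgeR adjusted p = 0.0125) was lost without any of its 4 sums, at adjusted p from 0.0597 to 0.0804. None of these 3 differences was called in the equal-cell setting. The log2 difference of insulin only from Sst only cells was then -1.38 (edgeR adjusted p = 0.225) and that from Gcg only cells -0.38 in place of -1.06 (adjusted p = 0.826), and Sst only against Ppy only cells stood at adjusted p = 0.226.

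Rgs20 of the same family had 1 and 0 UMIs in insulin only cells of libraries 1 and 2, against 21 and 10 UMIs in Gcg only and 6 and 4 UMIs in Sst only cells. Both differences were called (edgeR adjusted p = 0.0242 and 0.022), and no fold is given at these counts. Rgs10, Rgs12 and Rgs14 of the R12 family together reached at most 26.8 CPM in a single-hormone sum.

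**Figure D4:**
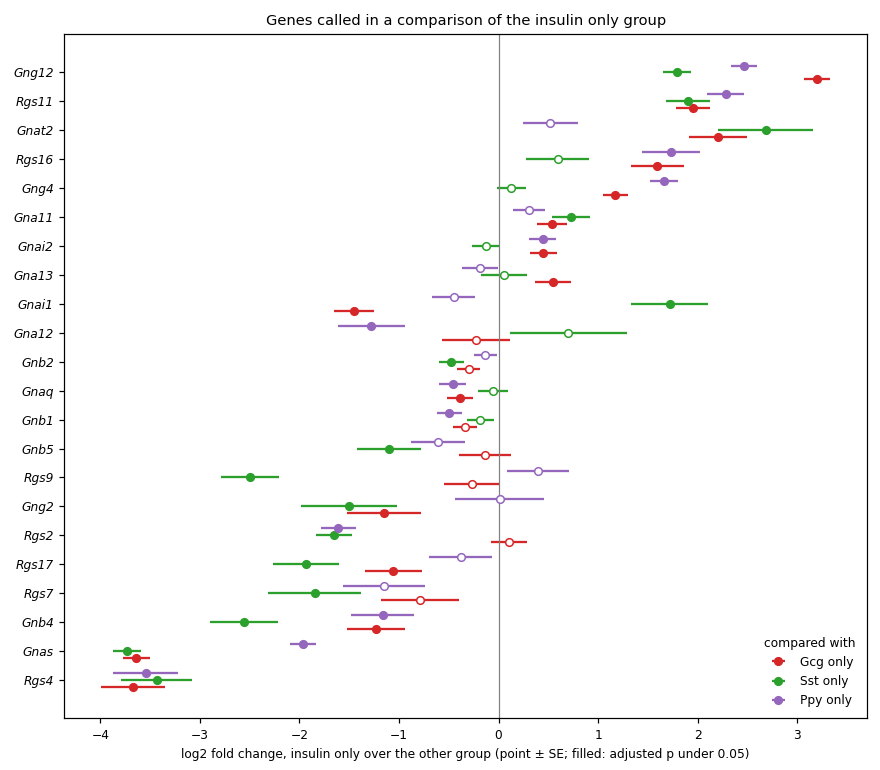
Log2 difference of insulin only cells from Gcg only, Sst only and Ppy only cells (horizontal axis, with SE from the edgeR fit) for the 22 members called in at least 1 of these comparisons, Rgs20 left out. Gng12 and Rgs11 lie to the right in all 3 comparisons and Gnas and Rgs4 to the left.

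Promoter sequence is shown for Rgs4, whose level parted insulin only cells from the 3 other single-hormone groups, for Rgs9, which parted Sst only cells from them, and for Rgs2, which parted Sst only and Ppy only from insulin only and Gcg only cells. No promoter was used for Rgs11. RefSeq (GRCm38.p6) gave 51 promoters for 38 of the 55 members, each from 250 bases before to 50 bases after a start site. The median GC content was 62.3%, against 52.7% over 32851 promoters. Capitals mark TGACG or its reverse complement CGTCA, the core of the cyclic AMP response element, and TATAAA or TTTATA. Rgs2 lies at chr1:144004100-144004399, Rgs4 at chr1:169747593-169747892 and Rgs9 at chr11:109298132-109298431, all on the minus strand and written 5′ to 3′.
Rgs2: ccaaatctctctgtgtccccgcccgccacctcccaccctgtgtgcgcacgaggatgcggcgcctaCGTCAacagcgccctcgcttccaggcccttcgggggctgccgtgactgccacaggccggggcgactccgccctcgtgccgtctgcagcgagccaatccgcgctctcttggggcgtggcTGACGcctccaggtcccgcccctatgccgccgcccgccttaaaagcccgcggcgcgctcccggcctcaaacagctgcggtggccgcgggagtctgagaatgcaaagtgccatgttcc
Rgs4: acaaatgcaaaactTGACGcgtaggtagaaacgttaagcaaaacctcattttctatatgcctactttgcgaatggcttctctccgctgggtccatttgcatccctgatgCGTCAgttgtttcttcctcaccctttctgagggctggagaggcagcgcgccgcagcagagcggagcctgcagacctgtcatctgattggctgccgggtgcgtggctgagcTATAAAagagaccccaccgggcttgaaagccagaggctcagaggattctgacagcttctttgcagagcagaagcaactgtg
Rgs9: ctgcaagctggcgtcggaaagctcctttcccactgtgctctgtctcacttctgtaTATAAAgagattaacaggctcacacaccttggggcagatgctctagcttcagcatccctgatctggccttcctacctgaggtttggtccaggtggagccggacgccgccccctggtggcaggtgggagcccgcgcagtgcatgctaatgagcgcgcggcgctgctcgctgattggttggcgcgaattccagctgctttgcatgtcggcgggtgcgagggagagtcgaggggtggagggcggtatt
The Rgs2 window holds the 5-letter core 185 and 67 bases before the start, and the Rgs4 window 236 and 141 bases before it with TATAAA 31 bases before it. The Rgs9 window holds TATAAA 195 bases before the start and no such core. Read on both strands, the core was in 13 of the 51 member promoters and in 20.8% of all promoters. The full element TGACGTCA was in 0 of 51 and 1.79% of all, TATAAA in 8 of 51 and 13.6% of all, and TAATTA, a homeodomain core, in 1 of 51 (Rgs13) and 5.29% of all. These are matches of letters, and binding was not measured.

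The share of cells with a UMI followed the sums. To compare it at an equal total, each cell was thinned to 4000 UMIs of all genes, which left out 0 cells. Depth in genes other than hormones stayed unequal. The median share of UMIs from the group's own hormone was 38.7% and 41.5% in insulin only and 36.3% and 36.5% in Ppy only cells. It was 23.8% and 24.6% in Gcg only and 9.07% and 9.12% in Sst only cells. The closing section gives the differences at an equal 2000 UMIs of genes other than hormones. At 4000 UMIs, Gnas was found in 13.7% and 11.1% of insulin only cells, 84.1% and 78.2% of Gcg only, 91.4% and 87.0% of Sst only and 38.9% and 45.6% of Ppy only cells. Hormone-free cells stood at 13.2% and 19.6%. They are a mixture that includes a class with Gnas at 325 and 517 CPM, so they set no floor for free RNA. The part of free RNA in the insulin only share was not tested.

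Without thinning, Gnas was found in 44.0% and 45.3% of insulin only and 45.1% and 51.1% of hormone-free cells. The Sst only share exceeded the insulin only share by 76.8 ± 1.26 percentage points (SD, n = 2 libraries) after thinning and 55.4 points before. With 2 libraries an exact permutation test cannot reach the threshold, so none was run.

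Thinned Rgs4 was found in 36.3% and 32.2% of Gcg only but 4.40% and 1.58% of insulin only cells, a difference of 31.2 ± 0.893 points (SD, n = 2) after thinning and 58.7 before. Hormone-free cells stood at 6.59% and 3.26%, not below insulin only cells in either library. Rgs9 was found in 62.9% and 82.6% of Sst only and 16.7% and 16.2% of Ppy only cells, 56.3 ± 14.3 points apart (38.3 before thinning), with 1.10% and 4.35% in hormone-free cells. The Ppy only share of Rgs9 thus lay above the hormone-free share in both libraries.

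Gng12 was found in 51.6% and 56.3% of insulin only and 14.8% and 9.77% of Gcg only cells after thinning (41.7 ± 6.88 points apart, 48.9 before), with 27.5% and 25% in hormone-free cells. Rgs11 was found in 35.7% and 30.5% of insulin only and 5.56% and 13.2% of Ppy only cells (23.7 ± 9.10 points, 31.0 before), with 2.20% and 2.17% in hormone-free cells. Rgs2 was found in 82.9% and 82.6% of Sst only and 34.6% and 27.0% of Gcg only cells (51.9 ± 5.20 points, 29.5 before). Its hormone-free share was 57.1% and 47.8%, above that of Gcg only cells. The median depth in UMIs of genes other than hormones was 11753 and 10188 in insulin only, 12693 and 14560 in Gcg only, 11742 and 12275 in Sst only, 18605 and 20180 in Ppy only, and 13153 and 14927 in hormone-free cells.

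Cells with Ppy beside another hormone were compared with cells of that other hormone alone, and few genes of any kind were called. Between Sst only and Sst and Ppy cells, 0 of 41 members were called by edgeR (0% and 0.0134% of all genes were called higher and lower), 0 by DESeq2, and 1 had an unadjusted p under 0.05, namely Rgs11, beside 970 of all 14955 genes. Rgs9 stood at 459.5 and 464 CPM and Gnas at 1002 and 1012 CPM in Sst and Ppy cells, within the range of the Sst only sums and above both Ppy only sums. The median absolute log2 difference over the members was 0.15, and 0.31 over all genes.

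Between Gcg only and Gcg and Ppy cells, 0 members were called by edgeR (0.00669% and 0.0334% of all genes higher and lower), 0 by DESeq2, and 7 had an unadjusted p under 0.05, beside 843 of all 14955 genes. The smallest was that of Gnat2, at 26.0 and 20.2 CPM in Gcg and Ppy cells against 8.38 and 8.50 CPM in Gcg only cells (edgeR adjusted p = 0.389). It was called at adjusted p = 0.0436 when the hormone-free sums were left out. Gnas at 729 and 752 CPM and Gnai1 at 209.7 and 137 CPM in Gcg and Ppy cells lay nearer to Gcg only than to Ppy only cells. The alpha cell list stood at 24502 and 24121 CPM in Gcg and Ppy cells, between the 47014 and 48585 CPM of Gcg only and the 2506 and 2273 CPM of Ppy only cells. Whether a barcode with both hormones held 1 cell or more was not tested.

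Hormone-free cells differed from the mean of the 4 single-hormone groups in 37 of 41 members, 22 higher (53.7% beside 33.4% of all genes) and 15 lower (36.6% beside 26.3%). Some of the higher members, such as Gna15, Rgs14 and Gngt2, were near 0 in every hormone group and passed the filter through the hormone-free sums alone. For such genes the direction of a call was set in advance, so the share called higher is not read as a result. Among the lower members, Gng4 stood at 8.17 and 6.95 CPM (13.8-fold lower, log2 -3.79 ± 0.17, edgeR adjusted p = 1.26e-10), Gnaz at 17.0 and 38.0 CPM (5.61-fold lower, edgeR adjusted p = 6e-08), and Rgs9 at 1.26 and 16.2 CPM and Rgs11 at 8.80 and 15.3 CPM. Gngt2 (111 and 112 CPM), Rgs1 (225 and 129 CPM) and Rgs10 (61.0 and 73.7 CPM) were among the higher members. They were at most 9.69 CPM in every sum of the single-hormone groups. Gng11 was also higher (148 and 153 CPM, edgeR adjusted p = 4.13e-08), above its 26.4 CPM in the Sst only sum of library 1.

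Hormone-free cells are a mixture, and they were split by the marker list of which a cell had at least 3 genes and more than of any other list, a rule set after seeing the data. This gave 28 and 34 endothelial-like, 20 and 10 B cell-like, 8 and 13 T cell-like, 8 and 12 macrophage-like, 8 and 10 ductal-like, 7 and 2 mesenchymal-like, and 0 and 1 Schwann-like cells in libraries 1 and 2. A further 12 and 10 cells stayed without a name, of which 10 and 8 carried at least 3 endocrine markers. No test was run between these classes.

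Rgs5, known from pericytes, stood at 23431 and 31043 CPM in the mesenchymal-like cells, and 3 cells held 72.2% of its hormone-free UMIs. Hormone-free cells as a whole held 93.5% of all Rgs5 UMIs. The Rgs5 level in hormone-free cells, 1599 CPM in library 1 and 413 CPM in library 2, moved with the 7 and 2 mesenchymal-like cells found there. Rgs4 also reached 748 and 479 CPM in mesenchymal-like cells, and Gng11 768 and 479 CPM.

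Macrophage-like cells held the highest levels of several RGS genes. Rgs2 stood at 3558 and 2949 CPM there, Rgs1 at 1989 and 999.9 CPM, and Rgs10, which is known from microglia and macrophages, at 569.7 and 568 CPM. Gna12 reached 236 and 307 CPM in them and Gngt2 333 and 415 CPM. T cell-like cells had Rgs10 at 329.9 and 114 CPM and Gna13 at 257 and 461 CPM.

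Rgs13, known from germinal centre B cells and mast cells, had its 45 hormone-free UMIs in B cell-like cells alone, at 50.8 and 234 CPM, and 3 cells held 80.0% of them. Endothelial-like cells had Gnai2 at 1204 and 1349.9 CPM, Gnb1 at 757 and 687 CPM, Gng11 at 325 and 322 CPM, Gngt2 at 262 and 134 CPM and Rgs12 at 170.1 and 97.9 CPM. Gna14 was found mainly in ductal-like cells, with 14 and 8 of its 40 UMIs. The cells without a name, most of which carried endocrine markers, had Gnas at 325 and 517 CPM and Gng4 at 41.8 and 78.9 CPM, above every other class of more than 1 cell.

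**Figure D5:**
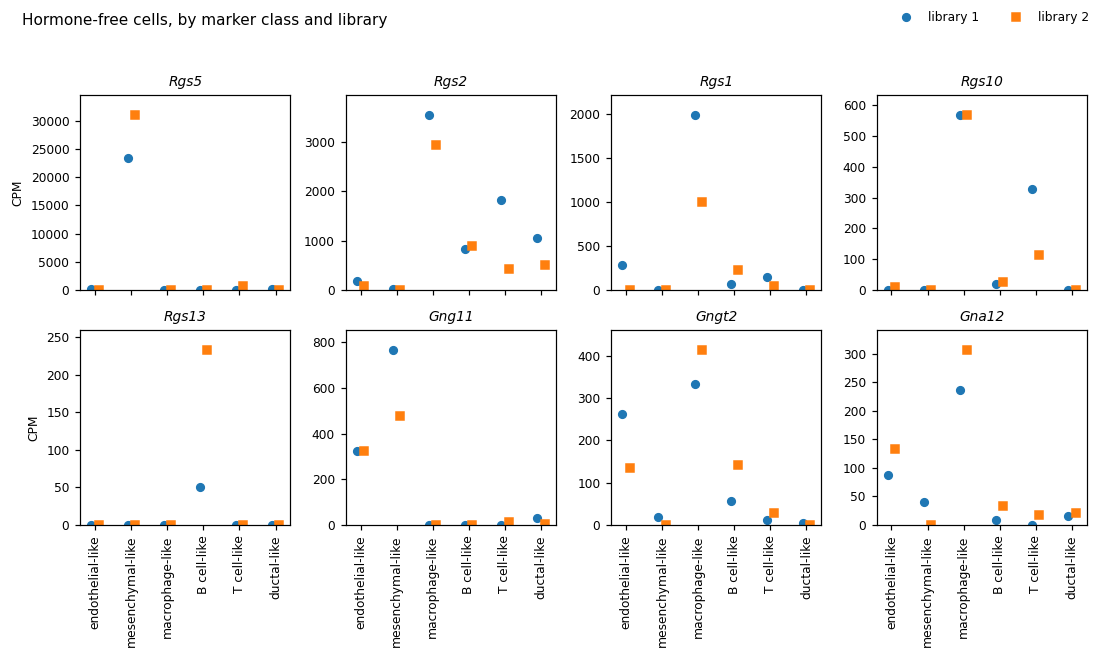
Level of 8 members (vertical axis of each panel, CPM without hormone genes, starting at 0) in the marker classes of hormone-free cells, with 1 point per library. Rgs5 is highest in mesenchymal-like cells, at 23431 and 31043 CPM, and Rgs1, Rgs2 and Rgs10 in macrophage-like cells.

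Other genes of the pathway were read from 3 lists that hold no member. Of 7 receptor kinases and arrestins, which switch receptors off, 2 were called between insulin only and Gcg only cells, 3 between insulin only and Sst only cells and 2 between insulin only and Ppy only cells. Of all 14955 genes 3738, 2161 and 3016 were called in these comparisons, so the count for Gcg only is near the share of all genes. Grk5, a receptor kinase, was higher in insulin only cells in all 3, at 56.5 and 65.3 CPM against 17.5 and 18.8 CPM in Gcg only, 6.59 and 6.70 CPM in Sst only and 7.73 and 5.28 CPM in Ppy only cells. Arrb1 was the lower gene against Sst only and Ppy only cells, at 1.11 and 0.842 CPM against 13.2 and 13.4 CPM and 9.45 and 7.62 CPM, and Arrb2 was lower in Sst only cells than in each of the 3 other groups.

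Of 10 chaperones, exchange factors and modulators, 9 were tested, and 3, 2 and 2 were called in the comparisons of insulin only with Gcg only, Sst only and Ppy only cells, the last of them near the share of all genes. Rap1gap, which acts on the small GTPase Rap1, was lower in insulin only cells in all 3, at 29.9 and 25.3 CPM against 98.0 and 86.2 CPM in Ppy only cells. Gpsm1, which binds the GDP form of Gi, was higher in insulin only than in Gcg only and Ppy only cells, at 55.7 and 53.5 CPM against 23.2 and 27.3 CPM and 16.3 and 27.6 CPM. Rasd1, a Ras-related protein that acts on Gi, was at 13.2 and 40.2 CPM in Sst only cells, below all 3 other groups by the test.

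Of 11 genes on the list of downstream effectors, all were tested. Kcnj3, a subunit of the potassium channel that beta and gamma open, was lower in insulin only cells in all 3 comparisons, with 0.738 and 0 CPM against 40.4 and 32.6 CPM in Gcg only, 19.8 and 6.70 CPM in Sst only and 25.8 and 25.8 CPM in Ppy only cells. Plcb4, a phospholipase that Gq activates, was at 213 and 214.5 CPM in Sst only cells, above the 92.6 and 103 CPM of insulin only and the 97.9 and 91.7 CPM of Gcg only cells. Prex2 was called higher in Sst only cells but stood at 17.6 CPM in library 1 and 0 in library 2, beside the endothelial marker sums of 624 and 53.6 CPM.

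The 14 members with rows in both libraries that were not tested had from 3 to 83 UMIs in all. Rgs8 had the most with 83, followed by Gng3 with 55 and Gna14 with 40. Gng3, known from neurons, had 42 of its 55 UMIs in hormone-free cells, all in 3 cells. Gnb3, Gng10, Gng13, Gnat1, Gnat3, Rgs6, Rgs18, Rgs22, Rgs9bp and the pseudogenes Gng2-ps1 and Gng5-ps each had 29 or fewer. Of the last 500 exonic bases of Gng10, 97% are shared with Gm20503 on the same strand. For Gng13, 79.8% are shared with Chtf18 on the opposite strand. What these overlaps do to the counts was not tested. Gng8 and Gngt1 had a row in 1 library each, and Gngt1 had 1 UMI.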

How the data were processed

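Single-cell RNA-seq of dissociated mouse islets was analysed in 2 libraries, labelled replicates 1 and 2 of the control. The authors deposited UMI counts per gene and cell, made by their Cytonaut pipeline from reads aligned to exons of GRCm38, with UMIs deduplicated and cell barcodes chosen with UMI-tools. The labels also name Seurat. Exon-only alignment leaves out unspliced reads, and the counting strand is not given in the sources used here. The count tables hold 15931154 and 17440292 UMIs, with a median of 17340 and 18922 per cell.

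Cells were grouped by the hormones at 1% of UMIs or more. Doublets were not called or removed. Cells with several hormones were kept apart, and cells above 2 times the median depth were left out as an alternative. UMIs were summed per group and library for the 7 groups with at least 20 cells in each library. The 5 hormone genes were left out of the table and of library sizes. The 14 sums were fitted together with the quasi-likelihood test of edgeR 4.0.16 in R 4.3.3 (TMM, filterByExpr, no covariate), with Benjamini-Hochberg adjustment over all 14955 genes and a threshold of 0.05. The fit had 7 residual degrees of freedom and a coefficient of variation of 15.4%. DESeq2 1.42.0 was an alternative. Sums, shares and thinning were computed in Python 3.11.15. The libraries are technical replicates, so p-values measure the spread between libraries alone. Intervals and limits of a count of 0 (3 UMIs) cover counting error alone.

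Full values are given for the 3 members with the largest called difference in each direction of each of the 6 single-hormone pairs, at 20 CPM or more in the higher group, and for the members called in most of these pairs, 14 in all. Others were named for their family or their class. The members and lists were chosen with earlier results of these data known. On simulated counts for insulin only against Gcg only over 13677 genes, 59% of genes changed 2-fold and 100% of those changed 4-fold were recovered. For Sst only against Ppy only over 13626 genes it was 41% and 87%. The changed genes were drawn from those with a mean above 20 CPM, and every gene was given the same spread. These rates therefore do not cover lower genes or genes with a wider spread. Coordinates and overlaps are from GENCODE M21 (GRCm38), and promoters from RefSeq.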

Additional observations from a re-analysis of the deposited data

Results flagged for a closer look

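Gng8, a gamma subunit gene known from sensory neurons, had a row in library 2 alone. It did not pass the filter on low counts and so was not tested in the main fit. Its 5 UMIs were all in 1 hormone-free cell, the Schwann-like cell of library 2, which held 95959 UMIs of genes other than hormones. The same cell held 99 UMIs of Gnao1, 15 of Gng3 and 7 of Gnb3. No other cell of either library had a UMI of Gng8, and library 1 had no Schwann-like cell.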

How the results depend on the processing

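No call of a named member changed direction in any setting. Of 54 calls of the 14 named members in the 6 single-hormone pairs, 28 were kept in every setting and 26 were lost in at least 1. With equal numbers of cells (23 per sum, 34 members tested) the members called fell to 7 for insulin only against Gcg only, 6 against Sst only, 5 against Ppy only, 2 for Gcg only against Ppy only, 4 for Sst only against Ppy only and 23 for hormone-free cells. With no filter on low counts they rose to 13 for Gcg only against Sst only, 14 for Gcg only against Ppy only, 17 for Sst only against Ppy only and 1 (Rgs5) for Gcg only against Gcg and Ppy. Leaving out the top cell of each gene gave 12 and 11 for Gcg only against Sst only and Ppy only, and leaving out deep cells gave 14 for the first of these. With the hormone-free sums left out, a setting chosen after seeing the data, these counts were 13 and 12, with 1 (Gnat2) for Gcg only against Gcg and Ppy, and 0 calls were lost in any of the 8 comparisons left.

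Leaving out 1 sum at a time gave 9 to 12 calls for insulin only against Gcg only and against Sst only, 7 to 10 against Ppy only, 5 to 7 for Gcg only against Sst only, 3 to 5 against Ppy only, 4 to 8 for Sst only against Ppy only, 0 for both comparisons with a second hormone and 34 to 37 for hormone-free cells. A lone sum was assumed to vary like the other groups. DESeq2 gave 13, 15, 12, 7, 6 and 10 calls for the 6 pairs.

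Without scaling factors, also chosen after seeing the data, the median log2 difference of all genes moved by -0.13 for insulin only against Sst only, and the share of all calls that were higher in insulin only cells went from 51.7% to 35.7%. For Gcg only against Sst only that share went from 48.8% to 36.6%, and to 38.0% with DESeq2. For Sst only against Ppy only it went from 51.5% to 63.1%, and to 62.0% with DESeq2. The members called higher and lower were then 4 and 12, 1 and 9, and 9 and 4.

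With the library number as a block, 17, 17, 12, 7, 7 and 12 members were called in the 6 pairs, 0 in both comparisons with a second hormone and 37 in hormone-free cells, so no count moved by over 1.5 times. Sums with the same library number did not deviate together (correlations from -0.042 to 0.078 over 21 pairs of groups), so the numbers were not read as pairs.

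At a hormone threshold of 2% the mean share of cells was 26.0% for insulin only, 27.5% for Gcg only, 6.96% for Sst only, 6.74% for Sst and Ppy and 7.27% for Gcg and Ppy. At 0.5% it was 21.4% for Gcg only, 2.64% for Sst only, 11.2% for Sst and Ppy, 12.1% for Gcg and Ppy and 12.1% for hormone-free cells, and the Sst only sum of library 2 had too few cells, so comparisons with Sst only and hormone-free cells could not be fitted. Without deep cells it was 6.02% for Ppy only, 10.9% for Sst and Ppy and 12.6% for hormone-free cells. The shares ranged over the libraries from 24.8% to 25.4% for insulin only, 23.3% to 24.8% for Gcg only, 3.07% to 4.76% for Sst only, 7.35% to 9.09% for Ppy only, 9.49% to 10.5% for Sst and Ppy, 8.84% to 11.5% for Gcg and Ppy and 12.3% to 12.4% for hormone-free cells.

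The differences in the share of cells with a UMI were, without thinning, 55.4 points for Gnas, 48.9 for Gng12, 58.7 for Rgs4, 38.3 for Rgs9 and 29.5 for Rgs2. Each cell was also thinned to 2000 UMIs of genes other than hormones, which evens the depth in these genes. The differences were then 69.8 for Gnas, 41.6 for Gng12, 25.1 for Rgs11, 28.0 for Rgs4, 37.7 for Rgs9 and 38.8 for Rgs2. The ranges over the 2 libraries that follow are those at 4000 UMIs of all genes. They were 75.9 to 77.7 for Gnas, 36.8 to 46.5 for Gng12, 17.3 to 30.2 for Rgs11, 30.6 to 31.9 for Rgs4, 46.2 to 66.4 for Rgs9 and 48.2 to 55.6 for Rgs2. The causes of these movements were not tested. The Sst only sums of 35 and 23 cells limit the precision of every comparison with them.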
